A study of Rattus norvegicus with 6 samples.

Results

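The miRNAs described here are 9 mature rat miRNAs of white blood cells and platelets, chosen by name from the table of sequenced miRNAs. They are rno-miR-223-3p, rno-miR-223-5p, rno-miR-142-3p, rno-miR-142-5p, rno-miR-150-5p, rno-miR-146a-5p, rno-miR-146b-5p, rno-miR-155-5p and rno-miR-342-3p, mostly written here without the rat prefix. All 9 were listed, out of 867 miRNA sequences in the table and 865 with at least 1 read in the libraries used. Small RNA was sequenced from circulating exosomes, small vesicles shed into blood, of male Sprague-Dawley (SD) rats aged 6 to 8 weeks on a normal diet. For NXT-Exo the animals received Naoxintong Capsule (NXT), a traditional Chinese medicine, at 1000 mg/kg/d, and for Ctl-Exo saline at 5 mL/kg/d, both by gavage. The comparison asks which exosomal miRNAs differ after NXT. It rested on 5 NXT-Exo libraries (replicates 1 to 5) and 1 Ctl-Exo library (replicate 5), so no p-value was calculated between the groups. Columns headed Ctl-Exo 1 to 4 in the same table match no sample record used here and were left out, so the single control follows from that choice.

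Dosing lasted 7 days by the sample titles, whereas the treatment labels of NXT-Exo 1 to 5 list 7, 8, 9, 10 and 11 days, and the Ctl-Exo 5 label lists 11. Each group had 10 rats, and the protocol takes 10 mL of blood per rat and spins 110 mL of serum in total. No source used here ties a library to one rat or to a pool, so the spread between libraries may be partly technical. Blood was spun at 8000 g and the sediment discarded. The fluid, called serum in the protocol, was spun at 10000 g before exosomes were collected at 140000 g. Listed reads per library ranged from 1168686 (NXT-Exo 4) to 3781718 (NXT-Exo 5) in NXT-Exo, and Ctl-Exo 5 had 1890463. Levels are given as CPM, read counts scaled to a common depth with TMM factors, and 1 read was worth 0.261 to 0.782 CPM. miRNA reads carry no marker of vesicles, so the exosome label was not checked here.

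These miRNAs are grouped by the cells in which they are abundant. miR-223 is made in granulocytes, monocytes and the megakaryocytes that shed platelets, and limits granulocyte activation. miR-142 is made throughout the blood lineages and is often used as a pan-leukocyte marker. miR-150 is abundant in mature B and T lymphocytes, where it targets the transcription factor Myb, and miR-155 is induced in activated lymphocytes and macrophages. miR-342, from an intron of Evl, is well expressed in lymphoid cells. miR-146a and miR-146b are induced through NF-kB and damp Toll-like receptor signalling by targeting Traf6 and Irak1. Serum is the fluid left after clotting, during which platelets release their contents. The published protocol calls the fluid serum but describes no clotting step. In a serum sample, fewer vesicles from a cell type and less of a miRNA per vesicle cannot be told apart.

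The listed sequences are shown because the seed, bases 2 to 8 in capitals, sets which mRNAs a miRNA can pair with, and because similar sequences can compete for the same reads. They are ordered by mean level.
rno-miR-142-5p: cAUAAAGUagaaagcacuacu
rno-miR-146a-5p: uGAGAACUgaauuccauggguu
rno-miR-150-5p: uCUCCCAAcccuuguaccagug
rno-miR-146b-5p: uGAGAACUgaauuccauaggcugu
rno-miR-223-3p: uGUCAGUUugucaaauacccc
rno-miR-342-3p: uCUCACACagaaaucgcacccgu
rno-miR-142-3p: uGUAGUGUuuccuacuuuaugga
rno-miR-223-5p: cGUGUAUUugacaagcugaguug
rno-miR-155-5p: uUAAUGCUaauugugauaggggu
Only miR-146a-5p and miR-146b-5p share a seed. Their first 17 bases are identical, and over the 22 bases of miR-146a-5p they differ by G18A and U21C (miR-146a-5p base first, counted from the 5′ end). How the counting treated reads too short to tell them apart is not given in the sources used here, so the split between these miRNAs is uncertain. RefSeq (GRCr8) holds 8 of the 9 mature sequences, all identical to the listed ones. In that annotation Mir342 lies within Evl, Mir142 overlaps Tspoap1 next to Mpo, which encodes the granulocyte enzyme myeloperoxidase, Mir155 lies within Mir155hg, and Mir223 lies between Msn and Vsig4.

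The 9 miRNAs together held 2.82% ± 0.27 (SD, n = 5) of the listed reads in NXT-Exo, compared with 3.18% in Ctl-Exo 5. The pan-leukocyte pair miR-142 held most of this, 61.3% to 65.8% of the reads of the 9 across the 6 libraries. The NF-kB-induced pair miR-146 held 16.5% to 21.9%, the lymphoid miRNAs miR-150-5p, miR-342-3p and miR-155-5p together 10.5% to 13.7%, and the myeloid and platelet pair miR-223 only 4.57% to 6.50%. Levels of different miRNAs are compared as reads, and how efficiently each sequence was captured in the libraries was not measured.

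By mean CPM over the 6 libraries, miR-142-5p ranked 8 among the 865 miRNAs, miR-146a-5p 42, miR-150-5p 46, miR-146b-5p 50, miR-223-3p 58 and miR-342-3p 86. The minor members were far lower, with miR-142-3p at rank 211, miR-223-5p at 294 and miR-155-5p at 398. Each member was above the next in this order in 6 of 6 libraries, with 1 exception. miR-150-5p exceeded miR-146b-5p in 4 of 6 libraries, and their mean log2 ratio of 0.19 was smaller than its SD of 0.34, so the order of these neighbours was not separable. miR-146a-5p exceeded miR-150-5p by a log2 ratio of 0.27 ± 0.23 (SD, n = 6), just over its spread. In NXT-Exo 4 they had 3973 and 3972 reads, and in NXT-Exo 5 they were at 3095 and 3059 CPM. Their order was therefore not separable in these libraries.

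**Figure D1:**
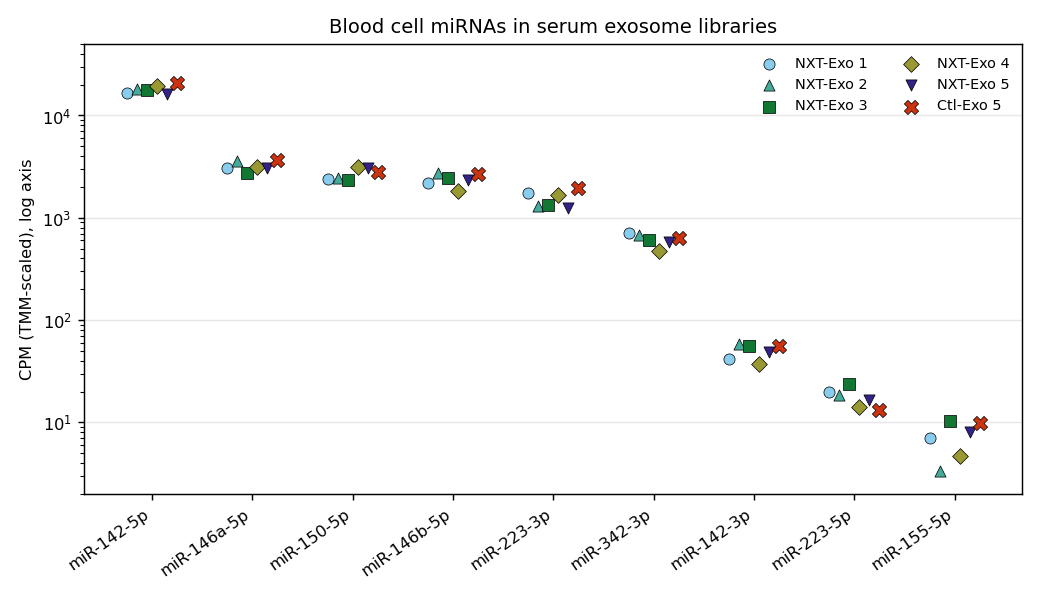
Level of each miRNA in CPM (log axis) in the 5 NXT-Exo libraries and Ctl-Exo 5, 1 point per library. miR-142-5p lies between 16347 and 20887 CPM, the next 4 miRNAs between 1251 and 3694 CPM, and miR-155-5p between 3.31 and 10.3 CPM.

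Calling a miRNA 2-fold apart required a ratio of at least 2 or at most 0.5 of the NXT-Exo mean to Ctl-Exo 5 (CPM + 1), with Ctl-Exo 5 beyond every NXT-Exo library. None of the 9 miRNAs met this, compared with 11.4% of the 865 miRNAs (5.32% higher and 6.13% lower in NXT-Exo). Among the 467 miRNAs averaging 10 reads or more, which include all 9 members, the share was 6.42%, and among the 229 averaging 100 reads or more, which include 7 members, it was 0.437%. Without the fold condition, Ctl-Exo 5 was above every NXT-Exo library for miR-223-3p, miR-142-5p and miR-146a-5p and below every one for miR-223-5p. Across the 865 miRNAs, 15.3% had Ctl-Exo 5 above and 15.0% below. The 4 of 9 members stand against 30.3% of the 865 miRNAs in either direction, 37.5% of the 467 and 37.6% of the 229, so the count is near the background. The log2 difference, NXT-Exo minus Ctl-Exo 5 on the log2(CPM + 1) scale, was negative for 8 of the 9, with a median of -0.21. The median was 0.16 over all 865 miRNAs and 0.01 over the 229 averaging 100 reads or more. The difference exceeded the SD between NXT-Exo libraries for 5 of the 9, 1 of them positive (miR-223-5p) and 1 by a narrow margin (miR-146b-5p, -0.215 against 0.212). The share of all miRNAs that exceed their SD was not calculated, so this count has no background. Over the 229, the median absolute difference was 0.18 and the median SD 0.22. Every difference is taken from the same Ctl-Exo 5, so the signs are not independent. Summed over the 9, the level was 27944 ± 1416 CPM (SD, n = 5) in NXT-Exo against 32695 CPM in Ctl-Exo 5. That difference of -0.23 was larger than the SD of 0.07 between NXT-Exo libraries on this scale. As a share of listed reads the groups overlapped, with NXT-Exo 4 at 3.27% above Ctl-Exo 5 at 3.18%.

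**Figure D2:**
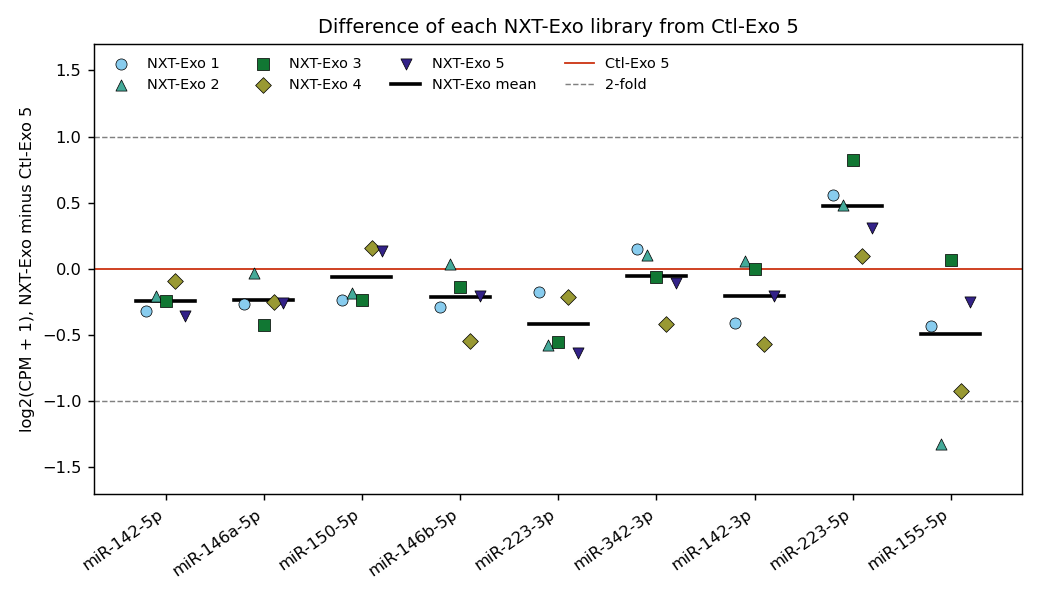
Log2(CPM + 1) of each NXT-Exo library minus that of Ctl-Exo 5 for each miRNA, with the log2 of the NXT-Exo mean as a black bar and dashed lines at 2-fold. The 5 points lie below 0 for miR-142-5p, miR-146a-5p and miR-223-3p, above 0 for miR-223-5p, and on both sides for the other miRNAs.

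Among the myeloid and platelet miRNAs, rno-miR-223-3p, the main product of its hairpin, was lower in NXT-Exo. The level of rno-miR-223-3p was 1729, 1305, 1329, 1684 and 1251 CPM in NXT-Exo 1 to 5 and 1948 CPM in Ctl-Exo 5. The latter rested on 3577 reads, which give a 95% Wilson range of 1885 to 2012 CPM. The groups did not overlap, and in CPM all 5 NXT-Exo libraries lay below the interval, which covers counting error only. As a share of listed reads, NXT-Exo 4 (0.184%) was closer to Ctl-Exo 5 (0.189%). For the miR-223 pair summed, the NXT-Exo 4 share (0.186%) lay inside the Ctl-Exo 5 Wilson interval of 0.184% to 0.197%. The NXT-Exo mean of 1460 ± 228 CPM (SD, n = 5) was 0.75 times Ctl-Exo 5, a log2 difference of -0.42 against an SD of 0.22. NXT-Exo 1 and 4 stood above NXT-Exo 2, 3 and 5.

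The opposite arm, miR-223-5p, went the other way. It had 59, 62, 53, 18 and 63 reads in NXT-Exo 1 to 5 and 24 in Ctl-Exo 5, or 19.7, 18.7, 23.8, 14.1 and 16.4 CPM against 13.1 CPM. All 5 NXT-Exo libraries were above Ctl-Exo 5, but 3 of them lay inside its Wilson interval of 8.78 to 19.4 CPM. The log2 difference was 0.47, with an SD of 0.27 in NXT-Exo.

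Both arms come from the same hairpin, Mir223, shown here because their share of reads does not depend on how libraries are scaled. RefSeq gives the hairpin as follows, with the mature arms in capitals (5p first).
Mir223: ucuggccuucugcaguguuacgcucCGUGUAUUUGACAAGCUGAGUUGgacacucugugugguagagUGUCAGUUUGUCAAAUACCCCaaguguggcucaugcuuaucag
miR-223-5p made up 1.12%, 1.41%, 1.76%, 0.83% and 1.30% of the reads of both arms in NXT-Exo 1 to 5 and 0.67% in Ctl-Exo 5. Ctl-Exo 5 had the lowest share. Its 95% Wilson interval of 0.45% to 0.99% did not reach those of NXT-Exo 2 (from 1.10%), 3 (from 1.35%) and 5 (from 1.01%) but overlapped those of NXT-Exo 1 (from 0.87%) and 4 (from 0.52%). With 24 reads of the minor arm in 1 library, the difference in arm share was not checked in a further Ctl-Exo library, the columns headed Ctl-Exo 1 to 4 being left out.

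The pan-leukocyte miR-142 showed a far steeper arm bias in every library, towards the 5p arm. Its hairpin in RefSeq is printed with both arms in capitals (5p first).
Mir142: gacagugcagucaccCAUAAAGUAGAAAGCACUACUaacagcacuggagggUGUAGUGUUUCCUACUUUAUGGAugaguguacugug
rno-miR-142-5p was 16751, 18118, 17650, 19635 and 16347 CPM in NXT-Exo 1 to 5 and 20887 CPM in Ctl-Exo 5. Ctl-Exo 5 was highest, and the log2 difference was -0.24, beyond an SD of 0.10 that was the smallest of the 9 miRNAs. This order depended on the scaling. As a share of listed reads, NXT-Exo 4 (2.15%) was above Ctl-Exo 5 (2.03%), while the other NXT-Exo libraries lay between 1.65% and 1.75%.

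miR-142-3p had 126, 194, 125, 48 and 186 reads in NXT-Exo 1 to 5 and 103 in Ctl-Exo 5, which is 42.0, 58.4, 56.2, 37.5 and 48.5 CPM against 56.1 CPM. The groups overlapped, and the log2 difference (-0.20) did not exceed the SD (0.27). With the reads of the related sequence miR-142-y, described further on, added to miR-142-3p, the difference was -0.33 and exceeded that SD. It made up 0.28% ± 0.06 (SD, n = 5) of the reads of both miR-142 arms in NXT-Exo and 0.27% in Ctl-Exo 5, so the arm share of miR-142, unlike that of miR-223, placed Ctl-Exo 5 within the NXT-Exo range. The geometric mean ratio of miR-142-5p to miR-142-3p was 362 over the 6 libraries, against 83.2 for miR-223-3p to miR-223-5p.

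**Figure D3:**
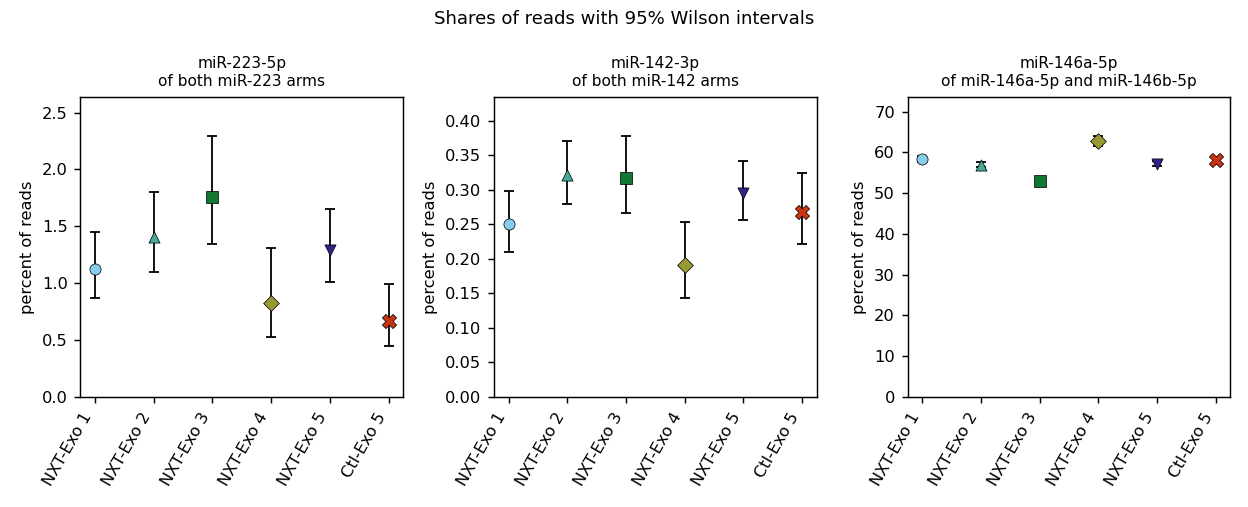
Percent of reads, by library, that miR-223-5p takes of both miR-223 arms, that miR-142-3p takes of both miR-142 arms, and that miR-146a-5p takes of miR-146a-5p plus miR-146b-5p. Bars are 95% Wilson intervals. Ctl-Exo 5 is lowest for miR-223 (0.67%) and within the range of the NXT-Exo libraries for the other shares.

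The lymphoid miRNAs showed no common shift. rno-miR-150-5p was 2367, 2451, 2360, 3105 and 3059 CPM in NXT-Exo 1 to 5 and 2785 CPM in Ctl-Exo 5. NXT-Exo 4 and 5 stood above Ctl-Exo 5 and the other NXT-Exo libraries below it, and the log2 difference of -0.06 was small beside the SD of 0.20. miR-342-3p was 702, 680, 604, 472 and 586 CPM in NXT-Exo 1 to 5 and 631 CPM in Ctl-Exo 5, with overlapping groups and a log2 difference of -0.05 (SD 0.23).
miR-155-5p, the least abundant of the 9, had 21, 11, 23, 6 and 31 reads in NXT-Exo 1 to 5 and 18 in Ctl-Exo 5. In CPM this is 7.00, 3.31, 10.3, 4.69 and 8.09 against 9.80, with a 95% Wilson interval of 6.20 to 15.5 CPM for Ctl-Exo 5. The log2 difference of -0.49 was the most negative of the 9 but did not exceed its SD of 0.55, and no difference was detectable at this depth.

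The NF-kB-induced miRNAs were both lower on average in NXT-Exo. rno-miR-146a-5p was 3081, 3623, 2752, 3106 and 3095 CPM in NXT-Exo 1 to 5 and 3694 CPM in Ctl-Exo 5. Every NXT-Exo value was lower, although NXT-Exo 2 lay inside its Wilson interval of 3607 to 3783 CPM. The log2 difference was -0.24 with an SD of 0.14. For miR-146b-5p the levels were 2190, 2734, 2435, 1835 and 2315 CPM in NXT-Exo 1 to 5 and 2672 CPM in Ctl-Exo 5. NXT-Exo 2 exceeded Ctl-Exo 5, so the groups overlapped, and the log2 difference of -0.21 was about as large as the SD of 0.21.
miR-146a-5p took 57.7% ± 3.52 (SD, n = 5) of the reads of both miRNAs in NXT-Exo and 58.0% in Ctl-Exo 5. The share ran from 53.1% in NXT-Exo 3 to 62.9% in NXT-Exo 4, and the Wilson intervals of these libraries (52.1% to 54.0% and 61.7% to 64.0%) were clearly apart.

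The balance of myeloid and platelet to lymphoid miRNAs was measured within libraries as the log2 ratio of miR-223-3p to miR-150-5p. miR-150-5p was the more abundant in 6 of 6 libraries, with log2 ratios of -0.45, -0.91, -0.83, -0.88 and -1.29 in NXT-Exo 1 to 5 and -0.52 in Ctl-Exo 5. NXT-Exo 1 and Ctl-Exo 5 had the highest ratios and NXT-Exo 5 the lowest. The NXT-Exo mean was -0.87 ± 0.30 (SD, n = 5), and Ctl-Exo 5 lay within the NXT-Exo range. Between the lymphoid miRNAs, the log2 ratio of miR-342-3p to miR-150-5p was -2.13 ± 0.41 (SD, n = 5) in NXT-Exo and -2.14 in Ctl-Exo 5, with NXT-Exo 4 lowest at -2.71 and NXT-Exo 1 highest at -1.75. miR-155-5p stood at -8.51 ± 0.61 (SD, n = 5) relative to miR-150-5p in NXT-Exo and at -8.01 in Ctl-Exo 5.

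**Figure D4:**
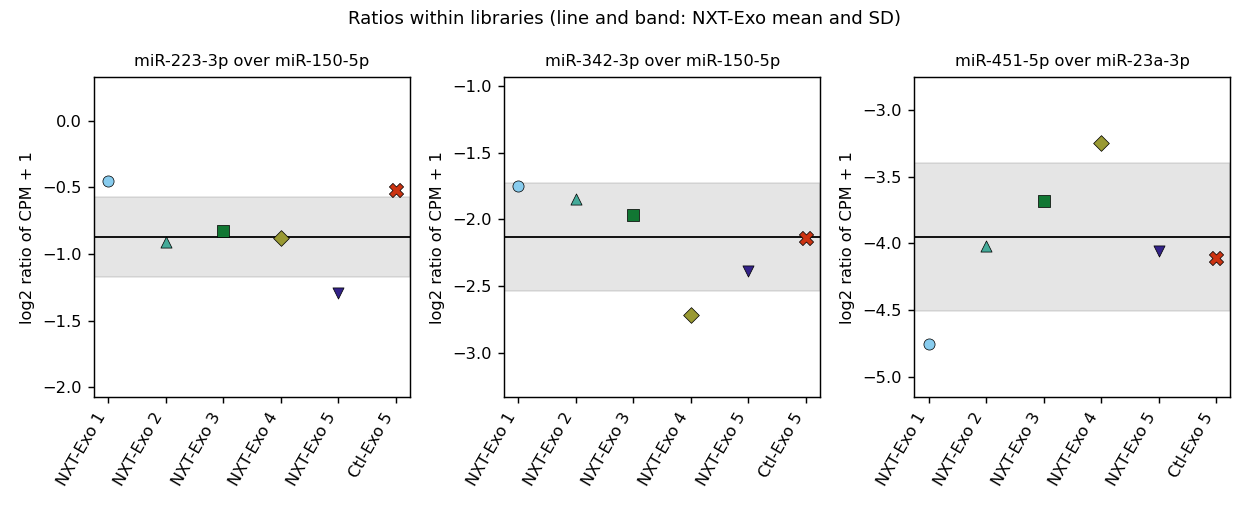
Log2 ratio of CPM + 1 within each library for miR-223-3p over miR-150-5p, miR-342-3p over miR-150-5p and miR-451-5p over miR-23a-3p, with the NXT-Exo mean (line) and SD (band). NXT-Exo 4 is lowest for miR-342-3p over miR-150-5p (-2.71) and highest for miR-451-5p over miR-23a-3p (-3.24), while NXT-Exo 1 is highest (-1.75) and lowest (-4.76).

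miRNAs of other blood cells and of liver were read beside these values. The erythroid list, miR-451-5p, miR-144-3p, miR-144-5p and miR-486, was listed in full, with none of the 4 at least 2-fold apart and none placing Ctl-Exo 5 beyond the NXT-Exo range. miR-486 alone was at 211313 ± 37784 CPM (SD, n = 5) in NXT-Exo against 207541 CPM in Ctl-Exo 5, many times the sum of the 9 miRNAs. The log2 ratio of miR-451-5p, which red cells release, to miR-23a-3p is a usual index of haemolysis. It was -4.76, -4.02, -3.68, -3.24 and -4.06 in NXT-Exo 1 to 5 and -4.11 in Ctl-Exo 5, which lay within the NXT-Exo range. Hepatocyte miR-122-5p was 6838 ± 6036 CPM (SD, n = 5) in NXT-Exo against 2195 CPM in Ctl-Exo 5, 2-fold apart with all 5 NXT-Exo libraries above Ctl-Exo 5. NXT-Exo 1 was highest, and without it the mean was 4202 CPM and the log2 difference 0.94, under 2-fold. Whether red cell or liver RNA had a part in the differences of the 9 miRNAs was not tested.
Of 5 other miRNAs abundant in platelets, none was 2-fold apart. miR-191a-5p was nominally below Ctl-Exo 5 in all 5 NXT-Exo libraries, but its log2 difference of -0.30 was under the SD of 0.35. NXT-Exo 1 (198091 CPM) was within counting error of Ctl-Exo 5 (198538 CPM), and as a share of listed reads NXT-Exo 1 was higher, at 20.4% against 19.3%. miR-21-5p was above Ctl-Exo 5 in all 5, at 5696 ± 981 CPM (SD, n = 5) against 4579 CPM. miR-126a-3p, shared by platelets and endothelium, was 923 ± 79.3 CPM (SD, n = 5) against 882 CPM, and miR-24-3p and miR-199a-3p also overlapped between the groups. The lymphoid miRNAs outside the 9, miR-181a-5p and miR-181b-5p, had log2 differences of 0.09 and -0.03 with overlapping groups.

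Of the 5 remaining opposite arms, 4 were listed. miR-150-3p, at 129 ± 19.5 CPM (SD, n = 5) in NXT-Exo against 130 CPM in Ctl-Exo 5, took 4.63% ± 0.52 (SD, n = 5) and 4.45% of the reads of its hairpin, more than the minor arms of miR-142 or miR-223. miR-342-5p took 3.45% ± 1.17 (SD, n = 5) and 3.74%. miR-146b-3p had 9 to 41 reads per library in NXT-Exo and 10 in Ctl-Exo 5. miR-146a-3p had 0, 2, 3, 0 and 7 reads in NXT-Exo 1 to 5 and 0 in Ctl-Exo 5, where 3 reads are 1.63 CPM, so no difference was detectable. None of the 4 was 2-fold apart.

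The table also held 9 related sequences that share a run of 16 or more bases with one of the 9 miRNAs, 8 of them listed without the rat prefix and 1 as a predicted miRNA. They matter because a shift of the 5′ end changes the seed. The most abundant of those that keep the seed was miR-146-x, with 2523 reads over the 6 libraries, followed by miR-223-y with 1937. The sequences with another seed were all variants of miR-142.
miR-223-y: uGUCAGUUugucaaauaccccau
miR-142-x: cACAUAAAguagaaagcacu
miR-142-y: aGUGUUUCcuacuuuauggauu
predicted miRNA: aCCCAUAAaguagaaagcacua
miR-223-y, miR-223-3p with 2 further bases at its 3′ end, took 7.77% of their joint reads. It was 117 ± 13.7 CPM (SD, n = 5) in NXT-Exo against 185 CPM in Ctl-Exo 5, below Ctl-Exo 5 in all 5 libraries, a log2 difference of -0.66. Adding its reads to miR-223-3p gave -0.44 in place of -0.42. miR-142-x starts 2 bases upstream of miR-142-5p, took 0.92% of their joint reads, and overlapped between the groups (168 ± 13.1 CPM, SD, n = 5, against 155 CPM).
The predicted miRNA starts 3 bases upstream of miR-142-5p and lies entirely within the Mir142 hairpin. It was 32.3 ± 5.57 CPM (SD, n = 5) in NXT-Exo against 47.4 CPM in Ctl-Exo 5, below Ctl-Exo 5 in all 5 libraries as miR-142-5p was. The other 7 variants checked against a RefSeq hairpin were not contained in it.
Ctl-Exo 5 was above every NXT-Exo library for 5 of the 9 variants and below for none, compared with 15.3% and 15.0% of the 865 miRNAs. In either direction the share was 37.5% of the 467 miRNAs averaging 10 reads or more. The variants share libraries with their parent miRNAs. Higher on average in NXT-Exo were miR-142-x, miR-223-x (10 reads over the 6 libraries) and miR-146-z, a variant of miR-146b-5p. miR-146-z was 22.4 ± 9.36 CPM (SD, n = 5) in NXT-Exo against 11.4 CPM in Ctl-Exo 5. The Ctl-Exo 5 value rested on 21 reads and lay within the NXT-Exo range. At least 2-fold apart were 2 of the 9 variants, both lower in NXT-Exo, compared with 6.13% of the 865 miRNAs in that direction. miR-142-y, which starts 3 bases inside miR-142-3p, had 0 to 3 reads per library in NXT-Exo and 11 in Ctl-Exo 5. miR-150-x, which differs from miR-150-5p at the 3′ end only, had 8 to 30 reads per library in NXT-Exo, or 6.81 ± 0.74 CPM (SD, n = 5), and 27 reads or 14.7 CPM in Ctl-Exo 5. Both rest on few reads beside their parent miRNAs, 2.01% and 0.29% of the joint reads.

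The profiles most like those of the main myeloid and lymphoid miRNAs were sought among the 228 other miRNAs averaging 100 reads or more, by the root mean square distance of centred log2(CPM + 1) over the 6 libraries. For miR-223-3p these were miR-28-5p (0.09), miR-27a-3p (0.13) and miR-328a-3p (0.13), against a median distance of 0.33. For miR-150-5p they were miR-27-y (0.07), miR-199a-3p (0.09) and miR-27b-3p (0.09), against a median of 0.26. Among the 7 members averaging 100 reads or more, miR-142-5p was nearest to both, at 0.18 from each, while miR-223-3p and miR-150-5p were 0.28 apart. This distance favours miRNAs that vary little, and miR-142-5p varied least of these members (SD 0.14 over the 6 libraries). Its distance from miR-150-5p was about the SD of miR-150-5p itself (0.18), so it does not show that they varied together.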

How the data were processed

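Small RNA libraries of serum exosomes were analysed, 5 of NXT-Exo and 1 of Ctl-Exo, grouped by sample title. The members and lists were chosen with earlier results of these data known. Using ACGT101-miR, the authors filtered out adapter dimers, reads of low complexity and other RNA classes, and they deposited unscaled read counts for each miRNA. The submitters' processing notes name the genome build Rnor 6.0, and the aligner is not given in the sources used here. The authors also deposited TPM values, which equal the count times a constant per library, with 0 reads written as 0.01. The table also holds 8 columns headed Ctl-Exo 1 to 4, counts and TPM, which match none of the sample records used here. They were not used here, so each comparison has 1 Ctl-Exo library.

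Counts were scaled with TMM factors (0.932 to 1.095) from edgeR 4.0.16 in R 4.3.3 over 865 miRNAs. Further steps used Python 3.11.15, numpy 2.4.6, pandas 2.3.3, scipy 1.17.1 and matplotlib 3.10.9. The group difference was taken between log2 of the NXT-Exo mean and of Ctl-Exo 5, each CPM + 1, and a miRNA was counted as apart at a ratio of at least 2 or at most 0.5 with Ctl-Exo 5 beyond every NXT-Exo library. The calculation was checked on simulated data. Wilson 95% intervals and the floor of 3 reads cover counting error only. Libraries differed by chi-square per degree of freedom of 38.1 to 272 in all 15 pairs, so none was a copy of another and each was counted separately. The lowest value was between NXT-Exo 2 and Ctl-Exo 5. These values do not show whether the libraries come from different animals. Related sequences were matched by a shared run of 16 bases. Named miRNAs were the 9 members, their opposite arms, fixed lists for other cell types, and the 3 nearest profiles of miR-223-3p and miR-150-5p. The alternatives were pseudocounts of 0.1 and 10, the listed total, DESeq2 1.42.0 size factors, the median, the mean of log2 values, deposited TPM, each NXT-Exo library left out, added variants, a minimum of 10 reads, and no range condition.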

Additional observations from a re-analysis of the deposited data

Results flagged for a closer look

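Of 48 sets of the 5 NXT-Exo libraries checked, 2 held a single distant value, and chance alone marks about 1 in 20. miR-142-3p and miR-142-5p together took 2.15% of listed reads in NXT-Exo 4 and 1.65% to 1.75% in NXT-Exo 1, 2, 3 and 5. The gap was 0.794 of the whole spread, above the critical 0.71. In TMM-scaled CPM their sum was 19673 in NXT-Exo 4 and 20943 in Ctl-Exo 5. Hepatocyte miR-122-5p reached 17384 CPM in NXT-Exo 1, far from the 3294 to 6430 CPM of NXT-Exo 2 to 5, with a gap of 0.777.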

How the results depend on the processing

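No paired analysis was possible because Ctl-Exo 5 has a single same-numbered partner and groups were not tested. The 116 values of the log2 difference of the 9 miRNAs each stayed within 1 SD, and 1 changed sign, miR-342-3p (-0.05), which was 0.03 without NXT-Exo replicate 4. For the settings that leave a library out, staying within 1 SD was nearly assured, because the SD is that of the same libraries. Ctl-Exo 5 stayed above every NXT-Exo library for miR-223-3p and miR-146a-5p and below for miR-223-5p in the 12 settings compared. Only the listed total, DESeq2 size factors and deposited TPM could have brought Ctl-Exo 5 inside the range. The pseudocounts, the median and the mean of log2 values leave the range unchanged, and leaving out an NXT-Exo library can only narrow it. miR-142-5p fell within the range with the listed total and with deposited TPM. miR-155-5p moved above the range with deposited TPM and without NXT-Exo replicate 3, and miR-146b-5p without NXT-Exo replicate 2. The count of miRNAs 2-fold apart (99, 46 higher and 53 lower) was 4 (3 higher, 1 lower) with a pseudocount of 10, 30 (22 higher, 8 lower) with a minimum of 10 reads, 166 (113 higher, 53 lower) with no range condition, and 101 to 123 with each NXT-Exo library left out. None of the 9 miRNAs was among them in the settings that leave a library out or change the scale, centre or pseudocount. With a pseudocount of 10 the mean log2 ratio of miR-223-3p to miR-223-5p (6.38) was 5.80 and that of miR-155-5p to miR-150-5p (-8.43) was -7.30, because a larger pseudocount raises the rarer miRNA. With the larger library totals that TPM implies, the NXT-Exo shares fell from 2.82% to 2.46% for the 9 miRNAs, from 1.79% to 1.56% for miR-142 and from 0.546% to 0.475% for miR-146. Leaving libraries out for miR-122-5p was chosen after seeing the data. With 1 read worth 0.544 CPM in Ctl-Exo 5, depth limits miR-155-5p and miR-223-5p most.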
